A study of Mus musculus with 9 samples.

Results

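The 10 genes described here, Eed, Suz12, Ezh1, Ezh2, Mtf2, Phf1, Phf19, Epop, Jarid2 and Aebp2, encode subunits and cofactors of Polycomb repressive complex 2 (PRC2). They were listed by name, all matched by symbol, and are 10 of 21900 protein-coding genes in the RefSeq annotation of the mouse build GRCm38 (mm10). Every m6A peak within 500 bp of their gene bodies was taken from the peak lists of 2 wild-type immunoprecipitations. In m6A-RIP-seq, an antibody captures RNA pieces bearing N6-methyladenosine, which are sequenced beside the input RNA. Both immunoprecipitations used anti-m6A antibody on oligo-dT-selected mRNA from mouse embryonic stem cells (mESCs) of genotype WT, grown with serum and LIF. The background label of these cells, shared by all 9 samples of the series, is Rosa26:CRE, Bir ligase. The labels call the samples replicates 1 and 2, and nothing says that they came from separate cultures. The 7 other samples, from Mettl3 knockout and Zc3h13 knockout cells and the inputs, were not analysed here.

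PRC2 methylates lysine 27 of histone H3 and keeps developmental genes silent in embryonic stem cells. Its core holds Eed, which binds the methylated histone tail, the scaffold Suz12, and either Ezh2 or Ezh1 as the catalytic subunit. The Polycomb-like proteins Mtf2, Phf1 and Phf19, together with Epop, mark the form called PRC2.1, and Jarid2 and Aebp2 mark PRC2.2. m6A is installed on mRNA by the methyltransferase Mettl3 with Mettl14 and is known for shortening the life of many transcripts in stem cells.

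The lists differed in length, with 22531 peaks in replicate 1 and 5040 in replicate 2. Fold enrichment is the signal of the immunoprecipitation over input at the summit, and −log10 q grows with the caller's confidence in a peak after adjustment for the many places tested. The median fold enrichment was 5.39 and 6.35, and the median −log10 q was 28.9 and 7.54. Read counts were not part of the lists, so depth is unknown. Peak names in the replicate 1 list make no mention of wild type, what they stand for was not given, and every peak at a PRC2 gene came from replicate 1. A peak list without expression values cannot check the cell type. Of 10 stem cell markers, 6 (Sox2, Nanog, Klf4, Zfp42, Esrrb and Sall4) had a peak in replicate 1, against 41.3% of all protein-coding genes. Pou5f1, Lin28a, Dppa5a and Tdgf1 had none. In replicate 2, 0 of the 10 had a peak, against 16.9% of all protein-coding genes.

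Peaks were found at Suz12, Epop, Jarid2 and Aebp2 and not at the other 6 genes. These 4 carried 10 peaks in replicate 1, namely 1 at Suz12, 2 at Epop, 3 at Jarid2 and 4 at Aebp2. In replicate 1 the share of PRC2 genes with a peak, 40.0%, was close to the 41.3% of all protein-coding genes. In replicate 2 no PRC2 gene had a peak, against 16.9% of all protein-coding genes. Hence no PRC2 gene was among those with a peak in both replicates, which made up 16.1% of protein-coding genes, or among those with overlapping peaks of both, which made up 15.6%. Counting only replicate 1 peaks with a fold enrichment of at least 4, 1 of the 10 genes was left, Aebp2, against 30.6% of protein-coding genes. Counting only the 5040 replicate 1 peaks highest in −log10 q, as many as replicate 2 had, 0 of 10 were left, against 17.3%. With 10 genes and 1 group of 2 lists, no test was made of these shares. Each of the 10 peaks lay within 500 bp of no other annotated gene.

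**Figure D1:**
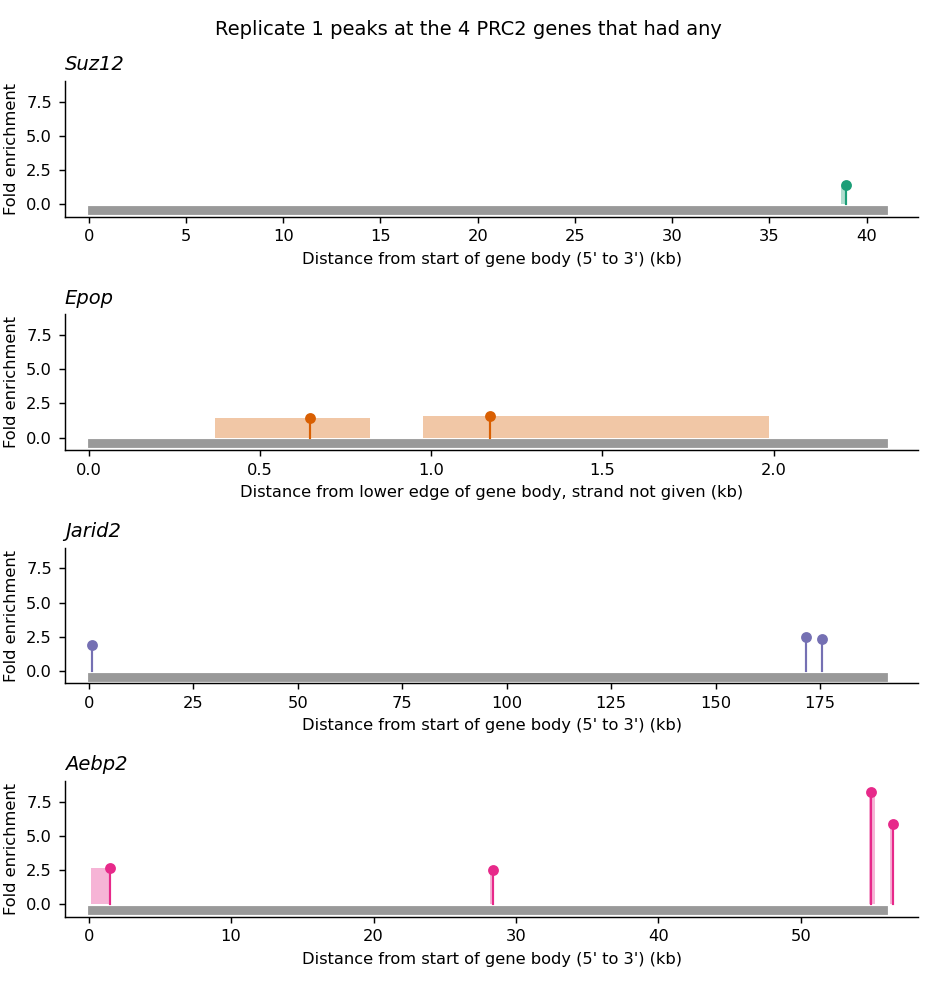
Replicate 1 peaks along the 4 PRC2 genes that had any, as fold enrichment over input (vertical axis) against distance from the start of the gene body in kb (horizontal axis; for Epop from the lower coordinate, since its strand was not given). Grey bars are gene bodies, coloured boxes are peaks and points are summits; the only points above a fold enrichment of 5 are the 2 at the 3′ end of Aebp2, at 8.23 and 5.84.

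Among the core subunits, only Suz12 had a peak. Suz12 lies on chromosome 11 from 79993106 to 80034123 on the plus strand, with a gene body of 41.0 kb. Its peak, chr11:80031787-80032104, was 318 bp wide with a fold enrichment of 1.44 (−log10 q 9.01). The summit stood 94.9% of the way along the gene body, 2074 bp before its 3′ edge. Only 0.431% of the peaks of replicate 1 had a lower fold enrichment and 10.7% a lower −log10 q, so this was among the weakest peaks in the list by fold. The nearest peak of replicate 2 lay 98.2 kb downstream of the gene, at Atad5.

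Eed, Ezh1 and Ezh2 had no peak in either list. Ezh1 (chromosome 11, 101191115 to 101226463, minus strand) is a gene of 35.3 kb. The peaks closest to it lay at Plekhh3, 19.7 kb downstream in replicate 1 and 19.8 kb downstream in replicate 2, with fold enrichments of 19.6 and 10.9. Both lists thus held a peak at this neighbour and none at Ezh1. Ezh2 (chromosome 6, 47530274 to 47595270, minus strand), the catalytic subunit that predominates in dividing cells, had its nearest peak 75.2 kb away at Cul1 in replicate 1 and 224 kb away at Zfp786 in replicate 2. Eed (chromosome 7, 89954654 to 89980976, minus strand) was, of the 10 genes, the one furthest from a replicate 1 peak, with 444 kb to one at Prss23, and 487 kb from the nearest in replicate 2. Whether the genes without a peak were expressed was not tested, as the lists carry no expression values.

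Of the 4 PRC2.1 cofactors, Epop had 2 peaks and the Polycomb-like genes had none. Epop, which joins PRC2 to the elongin complex, is the shortest gene of the set, with a body of 2330 bp on chromosome 11 from 97627387 to 97629716. Its strand was not given in the sources used here. The first peak, chr11:97627757-97628209, was 453 bp wide with a fold enrichment of 1.42 (−log10 q 11.4). The second, chr11:97628364-97629373, was 1010 bp wide with a fold enrichment of 1.60 (−log10 q 20.6). Both were low in fold, with 0.328% and 1.17% of the list below them, while the second was wider than 86.7% of the list. Together they covered 1463 bp, or 62.8% of the gene body, a larger share than at 98.1% of the 9038 protein-coding genes with a peak in replicate 1. At Aebp2 more bases lay under peaks, 2190 bp, which were 3.91% of its longer body. The next peak outside the 500 bp limit lay 4582 bp below the gene, at 2410003L11Rik, with a fold enrichment of 2.37.

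Mtf2, Phf1 and Phf19, whose proteins bring PRC2.1 to unmethylated CpG-rich DNA, were all without a peak. Mtf2 (chromosome 5, 108065660 to 108109219, plus strand) lay 48.1 kb from the nearest replicate 1 peak, at Ccdc18, and 460 kb from the nearest of replicate 2, at Gak. Phf1 (chromosome 17, 26933127 to 26937908, plus strand) had a peak 8.77 kb upstream at Kifc5b in replicate 1. Phf19 (chromosome 2, 34893752 to 34914353, minus strand) lay 21.8 kb from a replicate 1 peak that belonged to no gene, and 165 kb from the nearest of replicate 2, at Gapvd1.

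Both PRC2.2 cofactors had peaks, and they held 7 of the 10. Jarid2, a Jumonji family protein without demethylase activity that helps PRC2 bind chromatin, is the longest gene of the set, with a body of 190.9 kb on chromosome 13 from 44730774 to 44921643, plus strand. Its first peak, chr13:44731226-44731693, lay at the 5′ end, with the summit 848 bp into the gene body and a fold enrichment of 1.91 (−log10 q 16.4). The other two lay close together near the 3′ end, with summits at 89.9% and 92.0% of the body. The peak chr13:44902060-44902388 had a fold enrichment of 2.51 (−log10 q 61.2), and chr13:44906070-44906385 had 2.36 and 50.3. These were the highest −log10 q values at any of the 10 genes, and 76.0% and 70.0% of the list lay below them. Only 10.9% and 9.01% of the list lay below these 2 peaks in fold. The nearest peak of replicate 2 was 624 kb downstream of Jarid2, at Gmpr.

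Aebp2, a zinc finger protein that stimulates PRC2 and contacts nucleosomal DNA, lies on chromosome 6 from 140622454 to 140678472, plus strand, with a body of 56.0 kb. Its first peak, chr6:140622617-140624051, was the widest of the set at 1435 bp, wider than 94.4% of the list, and had a fold enrichment of 2.64 (−log10 q 31.9). The second, chr6:140650609-140650906, stood mid-gene with a fold enrichment of 2.54 (−log10 q 23.4), and at 298 bp it had the smallest width in the list. The third, chr6:140677238-140677694, had the highest fold enrichment at any of the 10 genes, 8.23, with a −log10 q of 14.9 and a summit 1067 bp before the 3′ edge. The fourth, chr6:140678706-140679021, began 234 bp beyond that edge, with a fold enrichment of 5.84 (−log10 q 8.10). Fold enrichment and −log10 q thus ran in different directions along Aebp2: the pair at the 3′ end was higher in fold than the pair upstream and lower in −log10 q. A further peak, 2204 bp beyond the gene and so outside the limit, lay at Gm30215 with a fold enrichment of 6.48 (−log10 q 10.01), beside 5.84 and 8.10 for the fourth. The nearest peak of replicate 2 was 1724 kb downstream, at Golt1b.

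The 5′ peaks of Jarid2 and Aebp2 reached into annotated start-site windows, which are printed because they are the stretches of these peaks whose sequence was at hand. Windows of 250 bases before and 50 after a start, from RefSeq on GRCm38.p6, were matched for 9 of the 10 genes. The window of Jarid2 is chr13:44731021-44731320 on the plus strand, around its downstream start site at 44731271, and that of Aebp2 is chr6:140622413-140622712 on the plus strand, around a start site at 140622663. Capitals mark the bases under the replicate 1 peak.
Jarid2: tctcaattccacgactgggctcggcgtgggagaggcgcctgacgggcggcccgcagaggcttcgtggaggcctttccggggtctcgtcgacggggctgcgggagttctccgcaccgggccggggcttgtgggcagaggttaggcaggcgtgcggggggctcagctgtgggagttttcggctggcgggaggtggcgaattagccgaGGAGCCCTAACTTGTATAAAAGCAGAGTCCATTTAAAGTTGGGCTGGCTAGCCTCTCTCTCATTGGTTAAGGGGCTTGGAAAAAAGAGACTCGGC
Aebp2: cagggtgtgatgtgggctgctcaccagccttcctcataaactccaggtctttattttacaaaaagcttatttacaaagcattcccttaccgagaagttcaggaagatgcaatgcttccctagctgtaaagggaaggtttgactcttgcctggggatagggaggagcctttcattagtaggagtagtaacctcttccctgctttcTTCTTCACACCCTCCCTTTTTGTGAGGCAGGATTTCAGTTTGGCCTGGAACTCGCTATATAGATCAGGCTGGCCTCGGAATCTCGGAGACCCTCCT
The peaks began 45 bp before the start site at Jarid2 and 46 bp before it at Aebp2, and covered the last 95 and 96 bases of the windows. Their summits lay 351 bp and 1298 bp past these sites, outside the windows. The upstream window of Jarid2, around the first start site, was not under the peak. The letters GGAC are a form of the sequence in which Mettl3 methylates adenosine. Other forms were not counted, and some stand in the capitals, such as AGACT at Jarid2 and GAACT at Aebp2. GGAC occurred on the sense strand in neither window, while 65.6% of all 32851 windows held it. On the other strand, read as GTCC, there was 1 match at Jarid2, within the capitals, and 0 at Aebp2, and 66.1% of all windows held that. A match or its absence in these windows describes the letters only.

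Peaks at the 10 PRC2 genes were low in fold enrichment for their list. The median of the 10 peaks was 2.43, against 5.39 over all peaks of replicate 1. All but the 3′ pair of Aebp2 fell in the lowest 2 deciles of the list, at 2.64 or below. In −log10 q they were less extreme, with a median of 18.5 against 28.9 and 7 of 10 below the list's median. In width, 5 of 10 were narrower than the list's median of 445 bp. By gene, the highest fold enrichment of Suz12 exceeded that of 0.465% of the protein-coding genes with a peak in replicate 1, that of Epop 1.24%, that of Jarid2 9.21% and that of Aebp2 64.5%. Low fold was not particular to these genes. Among the stem cell markers, the highest fold enrichments of Sox2, Nanog, Zfp42 and Klf4 in replicate 1 were 1.27, 1.67, 1.88 and 2.61. Those of Sall4 and Esrrb were 5.72 and 11.8.

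Set against peaks of like fold enrichment, within 10% of their own, the peaks at PRC2 genes parted, also within Jarid2 and within Aebp2. The 3′ pair of Jarid2 had a higher −log10 q than 92.4% of 1588 and 88.5% of 1449 such peaks, and the peaks of Epop a higher one than 81.2% of 186 and 87.4% of 396. The 3′ pair of Aebp2 stood at the other side, above only 20.2% of 2266 and 9.19% of 2983 such peaks. Suz12, the 5′ peak of Jarid2 and the upstream pair of Aebp2 lay between, above 39.9% to 61.2%. These are descriptions of a single list, with no test.

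**Figure D2:**
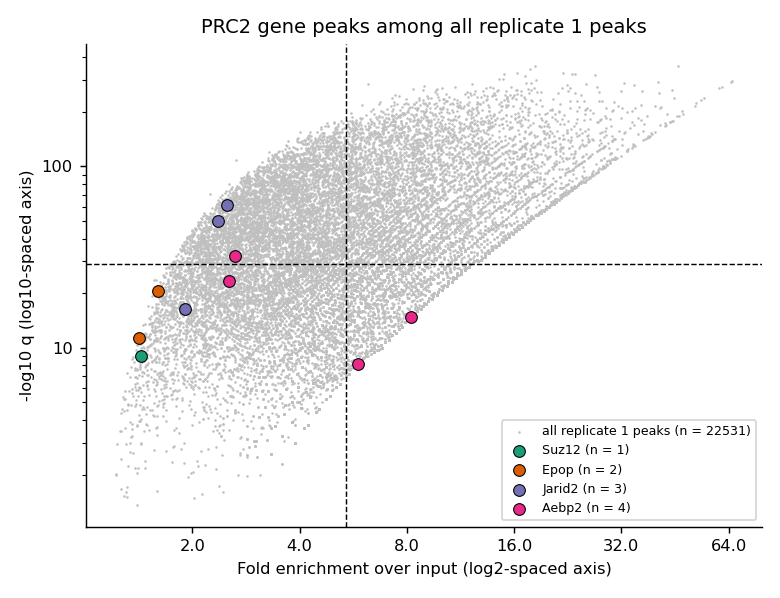
Fold enrichment over input (horizontal, log2-spaced) and −log10 q (vertical, log10-spaced) of all 22531 replicate 1 peaks in grey and of the 10 peaks at PRC2 genes in colour, with dashed lines at the list medians of 5.39 and 28.9. The peaks of Suz12, Epop and Jarid2 lie towards the left of the cloud and the 3′ pair of Aebp2 in its lower part.

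Along the gene body, the 8 peaks at genes of known strand had 2 summits in the first 10%, 2 in the middle, 3 in the last 10% and 1 beyond the body. Over 16737 pairs of a replicate 1 summit and a protein-coding gene of known strand, these parts held 10.3%, 54.3%, 30.0% and 5.41%. Introns count in these positions, since exons were not part of the gene table, so no peak could be placed in a coding or untranslated part.

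Over the whole list, the share of replicate 1 peaks that replicate 2 recovered ranged from 12.4% to 35.8% across deciles of fold enrichment and from 2.35% to 61.7% across deciles of −log10 q. Of the 2901 replicate 1 peaks with a fold enrichment of at most 2.64, which include 8 of the 10, 17.8% overlapped a replicate 2 peak, against 19.1% of all. The replicate 2 list held few peaks that low in fold, 121 or 2.40%, against 12.9% of the replicate 1 list. By −log10 q, the share recovered was 2.35% in the second decile, which holds the peak of Suz12 and the first of Epop, and 28.2% in the eighth, which holds the highest of Jarid2. No peak at the 10 genes was in the highest 2 deciles, where 40.7% and 61.7% were recovered. By gene, a peak in replicate 2 was also found at 25.9% of the 3854 protein-coding genes with 1 peak in replicate 1, as at Suz12, and at 40.9% of the 2243 with 2, as at Epop. It was found at 49.0% of the 1265 with 3, as at Jarid2, and at 53.6% of the 707 with 4, as at Aebp2. These classes match the number of peaks alone, and each PRC2 gene lay below its class in strength. The median highest fold enrichments of the classes were 4.78, 6.34, 7.59 and 8.75, against 1.44, 1.60, 2.51 and 8.23 at the 4 genes. The median highest −log10 q values were 30.0, 54.5, 69.1 and 82.7, against 9.01, 20.6, 61.2 and 31.9.

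**Figure D3:**
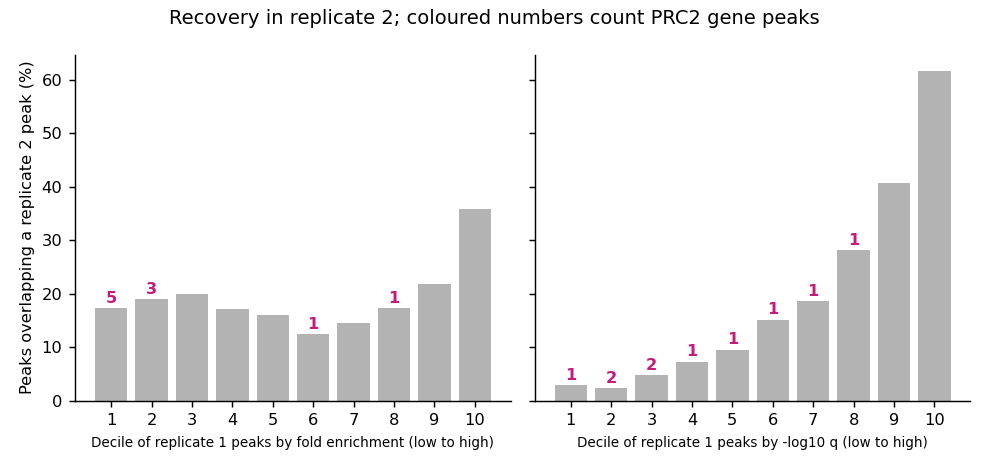
Recovery of replicate 1 peaks by an overlapping replicate 2 peak, in percent (vertical axis), in deciles of replicate 1 by fold enrichment (left) and by −log10 q (right), low to high. The coloured numbers count the peaks at PRC2 genes in a decile: 5 and 3 of them are in the lowest 2 deciles by fold, and by −log10 q they spread over the first to the eighth, where the share is at most 28.2%.

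In 5 lists of genes that work with or against PRC2, the share with a peak in replicate 1 ranged from 37.5% to 100%, against 41.3% of all protein-coding genes. The share with a peak in both replicates ranged from 0% to 55.6%, against 16.1% of all protein-coding genes. Of 8 other PRC2 partners, 3 had a peak in replicate 1, Lcor, Lcorl and Ezhip, and none had one in replicate 2. The highest fold enrichments of these 3 were 13.7, 14.1 and 11.4, and the highest −log10 q values were 189, 67.5 and 67.1. All were above the highest at the 10 PRC2 genes, 8.23 and 61.2. The other partners, among them the histone chaperones Rbbp4 and Rbbp7, were without a peak. Of 23 PRC1 genes, the complex that ubiquitinates histone H2A, 16 had a peak in replicate 1 and 7 in both, among them Ring1, Bmi1, Pcgf2, Cbx6 and Phc3. Ring1, a catalytic subunit of PRC1, had a fold enrichment of at most 6.45 in replicate 1 and 8.43 in replicate 2. Of 3 H3K27 demethylases, which remove the mark that PRC2 writes, Kdm6a and Kdm6b had a peak in replicate 1 and Kdm6b in both. All 4 genes of the H2A deubiquitinase list had a peak in replicate 1, and Asxl2 and Asxl3 in both. All 9 methyltransferases of H3K4 and H3K36, marks that oppose PRC2, had one in replicate 1, and 5 had one in both, namely Kmt2a, Kmt2b, Kmt2c, Kmt2d and Nsd3. Kmt2a and Kmt2d had 13 peaks each in replicate 1 and Ash1l had 11, beside 10 at the 10 genes of PRC2 together. These counts were not adjusted for the length of the gene or transcript. The differences between these lists were not tested.

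**Figure D4:**
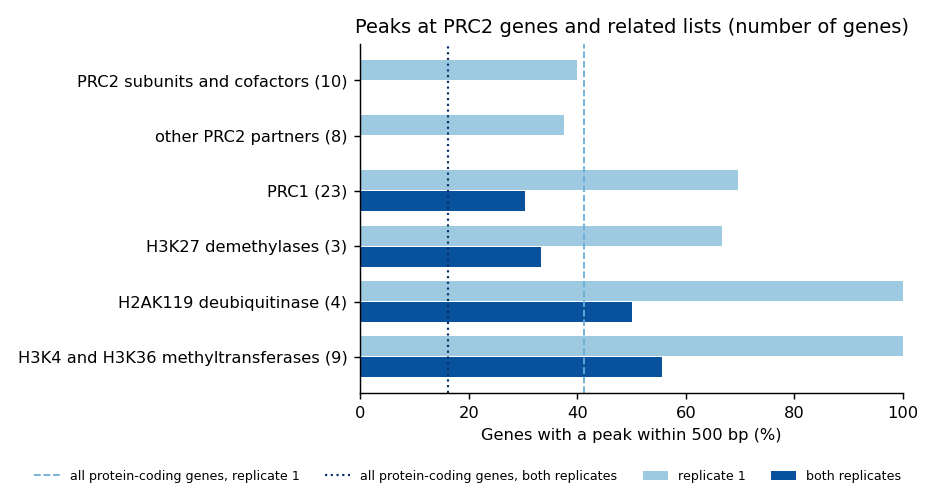
Percent of genes with a peak within 500 bp (horizontal axis) for PRC2 subunits and cofactors and 5 related lists, with the number of genes in brackets; light bars are replicate 1 and dark bars both replicates. Dashed and dotted lines are the shares of all protein-coding genes, 41.3% and 16.1%; PRC2 genes stand at 40.0% with no dark bar.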

How the data were processed

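Peak lists of the 2 wild-type immunoprecipitations, 1 per replicate, were analysed. Per the labels, reads were processed with Bowtie, SAMtools and MACS2 on mm10, with no versions given. The authors called peaks of immunoprecipitation against input in each replicate with MACS2 defaults. The series holds only 1 wild-type input, so the lists have no separate wild-type inputs. The input used for each list, and the treatment of duplicates and strand, are not given in the sources used here. The deposited values are a fold enrichment over input (a ratio), a −log10 p-value, a −log10 q-value and a score, which was not used. The score equalled 10 times the −log10 q, rounded down, in all but 1 of the 22531 peaks of replicate 1 and in all 5040 of replicate 2. Depth is unknown, and values are not adjusted for it.

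Coordinates are those of mm10, counted from 1, joined to gene bodies of 49997 RefSeq genes of GRCm38.p6. Strand came from the RefSeq start-site windows. A peak was assigned to every gene within 500 bp, as in the paper's methods. An overlap of 1 bp or more made a peak shared. The members and lists were chosen with earlier results of these data known. The rule for named genes was all 10 members, any gene at their peaks, and up to 5 genes per related list with a peak in both replicates, in list order; other genes named were chosen after their values were seen. No test was made, since 1 group of 2 lists allows none. The overlap code gave 0 differences from an exhaustive comparison on simulated data. The alternatives tried were a minimum −log10 q of 5, a minimum fold enrichment of 4, a shortened replicate 1 list, other distances and overlaps, the nearest gene only, and each replicate alone. The nearest replicate 2 peak of 1 gene is not reported here. A motif search around summits was left out, since no genome sequence was used here. Software: numpy 2.4.6, pandas 2.3.3 and matplotlib 3.10.9 under Python 3.11.15.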

Additional observations from a re-analysis of the deposited data

How the results depend on the processing

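Replicate 2 had no peak at a PRC2 gene under any of the alternatives. Only the distance of 2000 bp could have added one, and no replicate 2 peak lay that close. The other alternatives could only keep or remove replicate 2 peaks, so they do not probe this result. At a −log10 q of at least 5, with 0 or 2000 bp around the gene body and with the nearest gene only, 4 genes kept a peak in replicate 1, with 9 peaks at 0 bp and 10 at the others. The cut at 5 could remove none of these peaks, since their lowest −log10 q was 8.10. The nearest gene rule could remove none either, since no other gene lay within 500 bp of them. At a fold enrichment of at least 4, 1 gene was left, Aebp2, with 2 peaks, a median highest fold enrichment over genes of 8.23 against 2.05 as reported, and 1 summit within 1000 bp of a gene end against 3; 30.6% of protein-coding genes had such a peak. With replicate 1 shortened to the length of replicate 2, 5040 peaks with a −log10 q of 64.3 or more, 0 genes and 0 peaks were left and 0 summits near an end, against 17.3% of protein-coding genes with a peak. Both thresholds remove peaks by construction. Within 500 bp of an end there was 1 summit. With 1 replicate alone no count over both replicates exists. The genes with a peak were then 4 in replicate 1 and 0 in replicate 2.

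No paired analysis was possible because the peak lists used were of wild-type cells alone, which left no pair of groups. The motif search around summits was not run for want of a genome sequence. What depth limits was not measured, as the lists hold no read counts.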
